A study of Danio rerio with 8 samples.

Results

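The TGF beta and BMP family was described in bulk RNA sequencing libraries of zebrafish hearts, over larval hearts, uninjured adult hearts and adult hearts at 3 and 7 days after ablation of ventricular cardiomyocytes. Members were set by a pattern of gene symbols, which was chosen with earlier results of these data known. It took in ligands and proteases named tgfb, inhb, bmp or gdf, receptors named tgfbr, bmpr or acvr, the numbered Smads and ltbp genes. Antagonists named noggin, chordin, gremlin or follistatin were also taken in. The pattern matched 77 of the 31953 genes in the count table, and 71 of them passed the filter on low counts and could be tested. A member can pass that filter through 1 group in which it is high, so counts over the 71 tested members do not describe all 77. The 6 members not tested were bmp15, gdf2, gdf6b, gdf9 and both gene IDs called grem1a, each with at most 7 counts in any library. The symbols ltbp1, bmpr1bb and grem1a each belong to 2 gene IDs. By role the family holds 5 TGF beta ligands, 3 activin and inhibin beta subunits, 13 BMP ligands, 10 GDF ligands, 2 BMP1 proteases, 11 type I and 7 type II receptors, 1 co-receptor, 10 Smads, 2 latent binding proteins and 11 antagonists. The remaining 2 carry the name without the role: bmp2k is an intracellular kinase and tgfbrap1 a receptor adaptor.

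There were 4 groups of 2 libraries each. Young hearts came from larvae 3 days old, with about 500 hearts pooled per library and no treatment. Control hearts came from adults labelled as uninjured vehicle controls at 0 days, with 0.1% dimethyl sulfoxide as vehicle, although the collection notes place day 0 before the drug. Hearts at 3 dpi and 7 dpi (days post injury) came from adults given 5 mM metronidazole in the same vehicle for 48 hours. Each adult library pooled 4 to 6 hearts of fish about 6 months old. Ablation used the vmhc:mCherry-NTR line, in which the promoter of the ventricular myosin gene vmhc drives a bacterial nitroreductase that turns metronidazole into a toxin. The labels also list wild-type AB, hsWnt8:GFP and hsDKK1:GFP fish, and do not say from which line each library came. No group received metronidazole without ablation, so the drug and the loss of cardiomyocytes cannot be told apart. The labels do not say that the replicates came from separate treatments, so p-values measure the spread between these libraries.

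TGF beta family ligands are secreted dimers that bring together type I and type II receptor kinases. The type I receptor then phosphorylates receptor-regulated Smads, which enter the nucleus with the common Smad4. TGF beta, activin and nodal ligands act mainly through Smad2 and Smad3, and most BMP and some GDF ligands through Smad1, Smad5 and Smad9. Latent binding proteins hold TGF beta in the matrix, antagonists such as noggin and follistatin bind ligands outside the cell, and Smad6 and Smad7 damp the signal inside it. In the zebrafish heart, BMP signalling patterns the atrioventricular canal and the larval chambers, and TGF beta and activin signalling has been tied to scarring and to cardiomyocyte proliferation after injury.

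Total counts ranged over 10868019 to 26628897 per library, and members are given in CPM, counts scaled to a common library size, after TMM scaling by edgeR. Levels of different genes are not compared, since no gene lengths were used. The heart markers were present in every group: summed CPM of the 8 cardiomyocyte markers was 3420 to 3560 in young, 51100 to 62700 in control, 14900 to 27400 at 3 dpi and 115000 to 154000 at 7 dpi. In young hearts 7 of these 8 markers lay below control and 1 above, with a median log2 fold change of -3.67. The 7 dpi libraries stood apart from the other adult libraries: 17785 and 18744 genes were detected there, against 20660 to 21552 in the other adult libraries. The median log2 CPM of ribosomal protein genes exceeded that of genes of giant proteins by 7.43 and 7.69 at 7 dpi, against 2.37 and 3.85 in control hearts and 2.85 and 2.91 at 3 dpi. The part of this composition in the results at 7 dpi was not tested. By the labels' run names, control and 3 dpi libraries share a run prefix, whereas young and 7 dpi libraries have other prefixes. For young and 7 dpi hearts, the sequencing run and the group therefore cannot be told apart.

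The scale matters most at 7 dpi. When libraries were scaled to their totals instead of by TMM, the median log2 fold change of all genes moved by 0.44 for 3 dpi against control, by -1.24 for 7 dpi against control, by 0.60 for young against control and by -1.68 for 7 dpi against 3 dpi. Changes below are relative to TMM scaling unless totals are named. Under library totals, 3521 of all 19330 genes tested rose and 538 fell at 3 dpi against control. At 7 dpi 729 rose and 11036 fell against control, and 864 rose and 13072 fell against 3 dpi. In young hearts 8639 rose and 3390 fell. Counts under library totals below are read beside these. All log2 fold changes are written with ± their standard error, with n = 2 libraries in every group, and a gene rose or fell only where the adjusted p-value of the edgeR quasi-likelihood test was under 0.05. Young, 3 dpi and 7 dpi hearts were compared with the same control libraries, so those comparisons are not independent of each other. In these bulk samples, fewer cells of a type and less RNA per cell cannot be told apart.

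At 3 dpi against control, the ligand genes tgfb1b, tgfb3, inhbaa and bmp6, the receptor gene tgfbr2a, the latent binding protein gene ltbp1, the protease gene bmp1a and smad1 rose. The genes inhbb, bmp2a, bmpr1ba, acvr2aa, tgfbr2b, smad6a and fstb fell. Thus 15 of 71 tested members (21.1%) changed, 8 up and 7 down, beside 15.6% of all 19330 genes tested, 9.05% up and 6.55% down. Under library totals 12 members rose and 2 fell, beside 3521 up and 538 down of all 19330 genes. The median log2 fold change of the members was 0.00, and that of all genes tested 0.0025. Libraries of the groups did not overlap for 36 of the 71 members and for 56.7% of all genes. The count fell to 3 without control replicate 2 and to 4 without 3 dpi replicate 1, and only tgfbr2a and the abundant ltbp1 ID were called under every alternative run. With only the 2 groups fitted, the calls of tgfb1b, inhbaa, bmp1a, bmp2a, acvr2aa, tgfbr2b, smad1 and smad6a were lost.

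At 7 dpi against control, 10 members rose and 20 fell. Those that fell include the receptor genes tgfbr2a, tgfbr1b, tgfbr3, bmpr2a and bmpr2b, the ligand genes tgfb1a, tgfb1b, tgfb2 and bmp10, and smad3a and smad3b. Those that rose include tgfb3, inhbab, bmp2b, tgfbr2b and the inhibitory Smad genes smad6a, smad6b and smad7, of which tgfbr2b and the Smad genes lay below control under library totals. The 30 members called are 42.3% of those tested, beside 38.7% of all genes, 18.7% up and 20.0% down. Under library totals 43 members fell and 0 rose in the edgeR test, and 0 lay higher at an unadjusted p under 0.05. Of all 19330 genes tested, 11036 fell and 729 rose under library totals. The median log2 fold change was -0.32 among members and -0.13 among all genes tested. Libraries did not overlap for 48 members and for 68.3% of all genes. Without control replicate 1 the count fell to 17, and 10 of the 30 calls were made under every alternative in which the gene was tested. With only the 2 groups fitted, the calls of bmp2b, smad5 and smad6a were lost. Without a filter on low counts those of smad5 and smad6a were lost, and in DESeq2 that of gdf10a.

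At 7 dpi against 3 dpi, a contrast without the control group, 14 members rose and 22 fell. The filter, the scaling and the estimate of the spread still used all 8 libraries. The 36 called members are 50.7% of those tested, beside 50.9% of all genes, 22.8% up and 28.1% down. Under library totals 1 member rose and 46 fell, beside 864 up and 13072 down of all 19330 genes. The members' median log2 fold change was 0.01, or 0.052 with genes at 0 counts in a group set to their bound or left out, and that of all genes was -0.21. Libraries did not overlap for 50 members and for 73.1% of all genes. With only the 2 groups fitted, the calls of bmp2b, bmp5, gdf6a and tgfbrap1 were lost.

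In young against control hearts, 33 members rose and 10 fell. The rises count gdf10a, grem1b, nog1, grem2a, grem2b, gdf11, bmp5, bmpr1ba and the more abundant bmpr1bb ID, which had few or no counts in adult libraries. These passed the filter on low counts through the young libraries and could hardly have fallen. The counts and the median of the members therefore lean towards a rise and are not read as a direction of the family. The other rises include bmp2a, bmp2b, bmp4, fsta and nog2, and tgfb1b, tgfb2l, bmp10, bmp10l and tgfbr2b fell. The 43 called members are 60.6% of those tested, beside 60.2% of all genes, 32.6% up and 27.6% down. Under library totals 40 rose and 5 fell, beside 8639 up and 3390 down of all 19330 genes. The median log2 fold change was 0.91 among members and 0.14 among all genes tested. Libraries did not overlap for 58 members and for 83.7% of all genes. The calls of gdf3, gdf11 and smad6a were lost in DESeq2, and that of smad6a also with DESeq2 size factors in edgeR and without a filter on low counts. In each of the 4 comparisons the share of members called was near that of all genes, and the counts are not a result about the family as such.

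**Figure D1:**
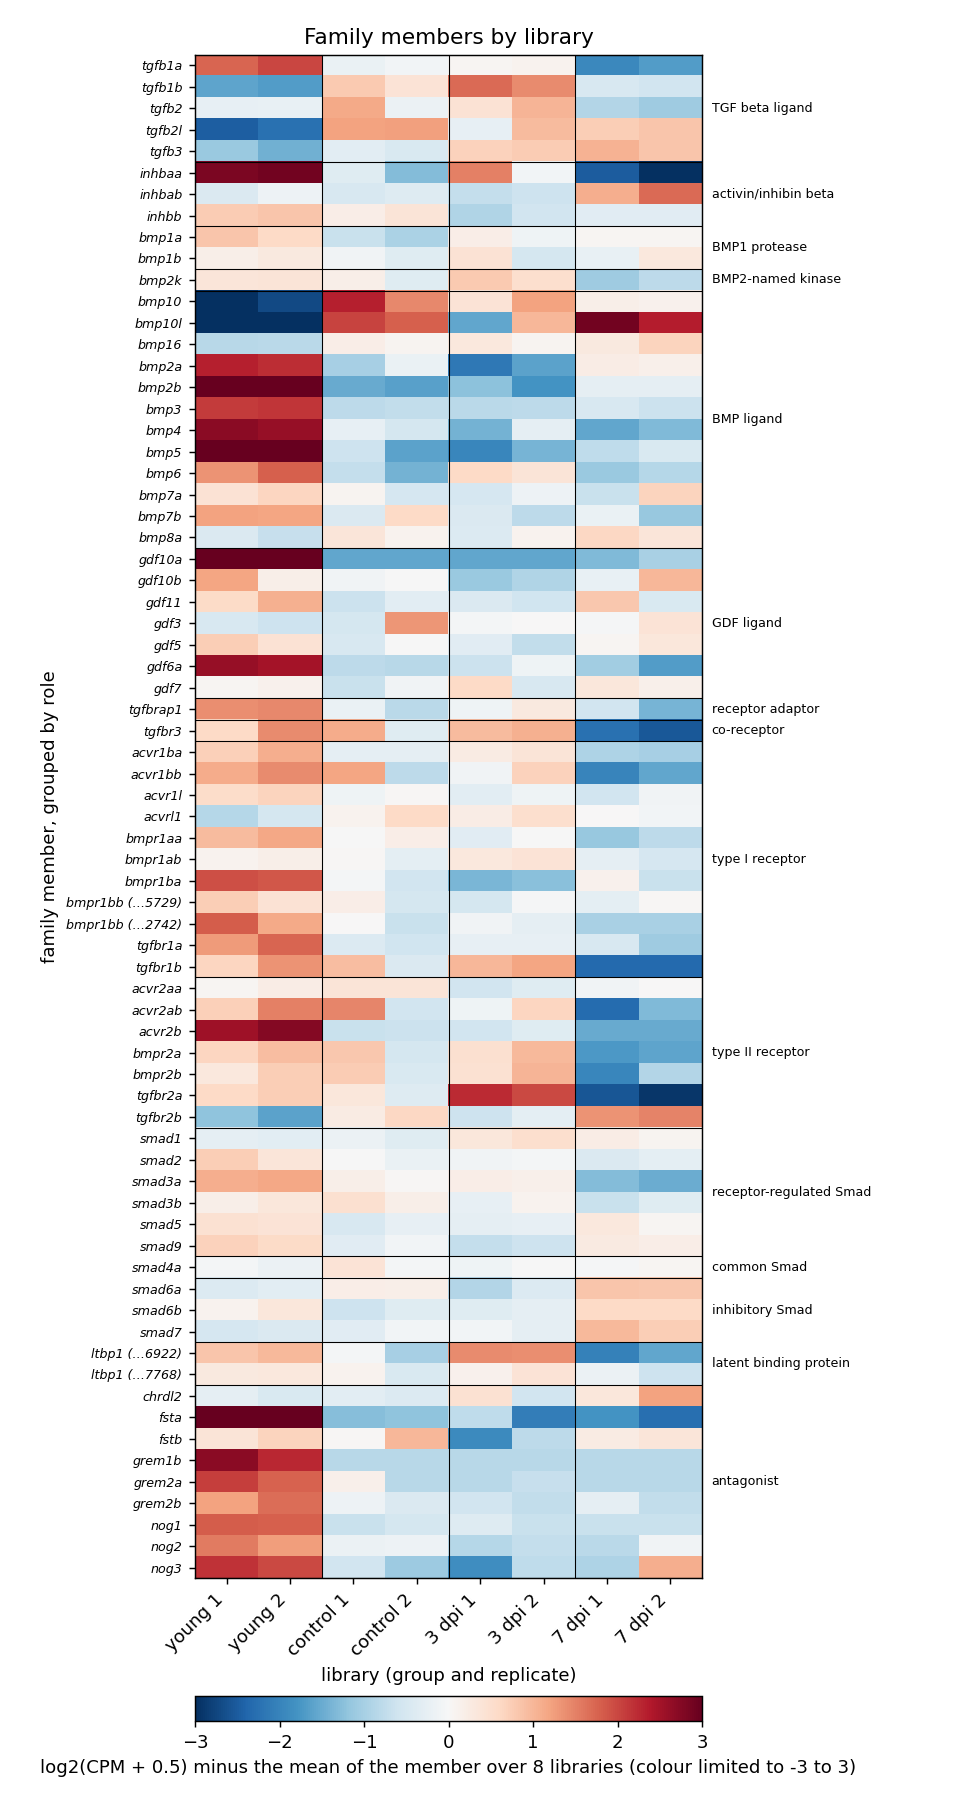
Heat map of the 71 tested members (rows, grouped by role) in the 8 libraries (columns). Colour gives log2(CPM + 0.5) minus the member's mean over the 8 libraries, red above and blue below the mean and limited to 3 either way, with CPM scaled by TMM. The fsta row is red in the young libraries, at 98.9 and 87.8 CPM against 0.983 and 1.06 CPM in control, and the tgfbr2a row is red at 3 dpi and blue at 7 dpi.

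Among the TGF beta ligands, tgfb1a and tgfb1b, the zebrafish copies of the gene for TGF beta 1, differed from each other across the groups. tgfb1a had 97.3 and 116 CPM in young hearts, 24.9 and 27.2 in control hearts, 30.1 and 30.9 at 3 dpi and 7.12 and 8.63 at 7 dpi. It was highest in young hearts and lowest at 7 dpi, with no overlap between those groups and the others. tgfb1a rose in young hearts (2.03 ± 0.21, edgeR adjusted p = 1.89e-05) and fell at 7 dpi, both against control (-1.72 ± 0.22, edgeR adjusted p = 0.000442) and against 3 dpi (-1.95 ± 0.22, edgeR adjusted p = 8.13e-05). At 3 dpi it differed from control by 0.23 ± 0.20, edgeR adjusted p = 0.501. tgfb1b had 4.98 and 4.58 CPM in young hearts, 27.8 and 21.3 in control hearts, 52.2 and 43.1 at 3 dpi and 11.2 and 10.5 at 7 dpi. Its 3 dpi libraries were the highest and its young libraries the lowest, and no groups overlapped. tgfb1b rose at 3 dpi (0.96 ± 0.23, edgeR adjusted p = 0.0192), fell at 7 dpi against control (-1.17 ± 0.24, edgeR adjusted p = 0.00366) and against 3 dpi (-2.13 ± 0.24, edgeR adjusted p = 8.61e-05), and fell in young hearts (-2.36 ± 0.24, edgeR adjusted p = 2.01e-05). Its call at 3 dpi was lost without control replicate 2 or 3 dpi replicate 1 (adjusted p of 0.121 to 0.136).

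The ligand gene tgfb3 was high in both injured groups. It had 47 and 37.1 CPM in young hearts, 82.4 and 73.7 in control hearts, 164 and 174 at 3 dpi and 210 and 183 at 7 dpi. Every injured library was above every control library, and every young library below. tgfb3 rose at 3 dpi (1.11 ± 0.21, edgeR adjusted p = 0.00765) and at 7 dpi (1.33 ± 0.22, edgeR adjusted p = 0.00125), and fell in young hearts (-0.89 ± 0.21, edgeR adjusted p = 0.00454). At 7 dpi against 3 dpi the change was 0.22 ± 0.21, edgeR adjusted p = 0.418. Under library totals its log2 fold change at 7 dpi against control was 0.064 and did not pass. The call at 3 dpi was lost without control replicate 2 (adjusted p = 0.058), and the call in young hearts without young replicate 2 (adjusted p = 0.0843). Under library totals the young value was -0.30 and did not pass.

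Besides tgfb2, a gene named tgfb2l is among the TGF beta ligands, and whether it is a copy of tgfb2 was not tested. tgfb2 had 22.3 and 22.7 CPM in young hearts, 59.5 and 23.5 in control hearts, 36.3 and 54.6 at 3 dpi and 14.3 and 12.4 at 7 dpi. The control libraries lay far apart, and the 7 dpi libraries were below all others. tgfb2 fell at 7 dpi against control (-1.63 ± 0.39, edgeR adjusted p = 0.00793) and against 3 dpi (-1.77 ± 0.39, edgeR adjusted p = 0.00348). The call against control was lost without control replicate 1 (adjusted p = 0.0721). The gene tgfb2l had 0.854 and 1.1 CPM in young hearts, 16.7 and 17.2 in control hearts, 5.78 and 13.9 at 3 dpi and 11.9 and 12.9 at 7 dpi. tgfb2l fell in young hearts (-4.10 ± 0.44, edgeR adjusted p = 2.55e-05), and its adult groups gave no call.

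Activins are dimers of inhibin beta subunits. Of the beta A genes, inhbaa had 41.4 and 43.2 CPM in young hearts, 4.1 and 1.89 in control hearts, 16.3 and 5.09 at 3 dpi and 0.548 and 0.249 at 7 dpi. The young libraries were the highest and the 7 dpi libraries the lowest, and the 3 dpi libraries lay above control but far apart. inhbaa rose at 3 dpi (1.86 ± 0.53, edgeR adjusted p = 0.0377) and in young hearts (3.85 ± 0.55, edgeR adjusted p = 0.000168) and fell at 7 dpi against control (-2.88 ± 0.76, edgeR adjusted p = 0.0131) and against 3 dpi (-4.74 ± 0.70, edgeR adjusted p = 0.000366). Its calls against control were lost at 3 dpi without control replicate 1, control replicate 2 or 3 dpi replicate 1 (adjusted p of 0.051 to 0.367) and at 7 dpi without control replicate 1 or 7 dpi replicate 2 (adjusted p of 0.0824 to 0.1). The other beta A gene, inhbab, had 1.93 and 2.45 CPM in young hearts, 1.88 and 2.01 in control hearts, 1.5 and 1.66 at 3 dpi and 6.58 and 10.3 at 7 dpi. Only its 7 dpi libraries stood apart, above the rest. inhbab rose at 7 dpi against control (2.11 ± 0.43, edgeR adjusted p = 0.00378) and against 3 dpi (2.41 ± 0.43, edgeR adjusted p = 0.00112). Under library totals these values were 0.88 and 0.73, and neither passed. The beta B gene inhbb had 43.4 and 45.7 CPM in young hearts, 29.6 and 33.8 in control hearts, 13.5 and 16.9 at 3 dpi and 20 and 20 at 7 dpi. inhbb fell at 3 dpi (-1.06 ± 0.21, edgeR adjusted p = 0.00919) and at 7 dpi (-0.66 ± 0.21, edgeR adjusted p = 0.0305), with every injured library below every control library. The inhbb call at 3 dpi was lost under library totals (-0.62). Leaving out 1 library, the inhbb calls were lost at 3 dpi without control replicate 2 or 3 dpi replicate 1 (adjusted p of 0.0567 to 0.0809) and at 7 dpi without control replicate 2, 7 dpi replicate 1 or 7 dpi replicate 2 (adjusted p of 0.0928 to 0.101).

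**Figure D2:**
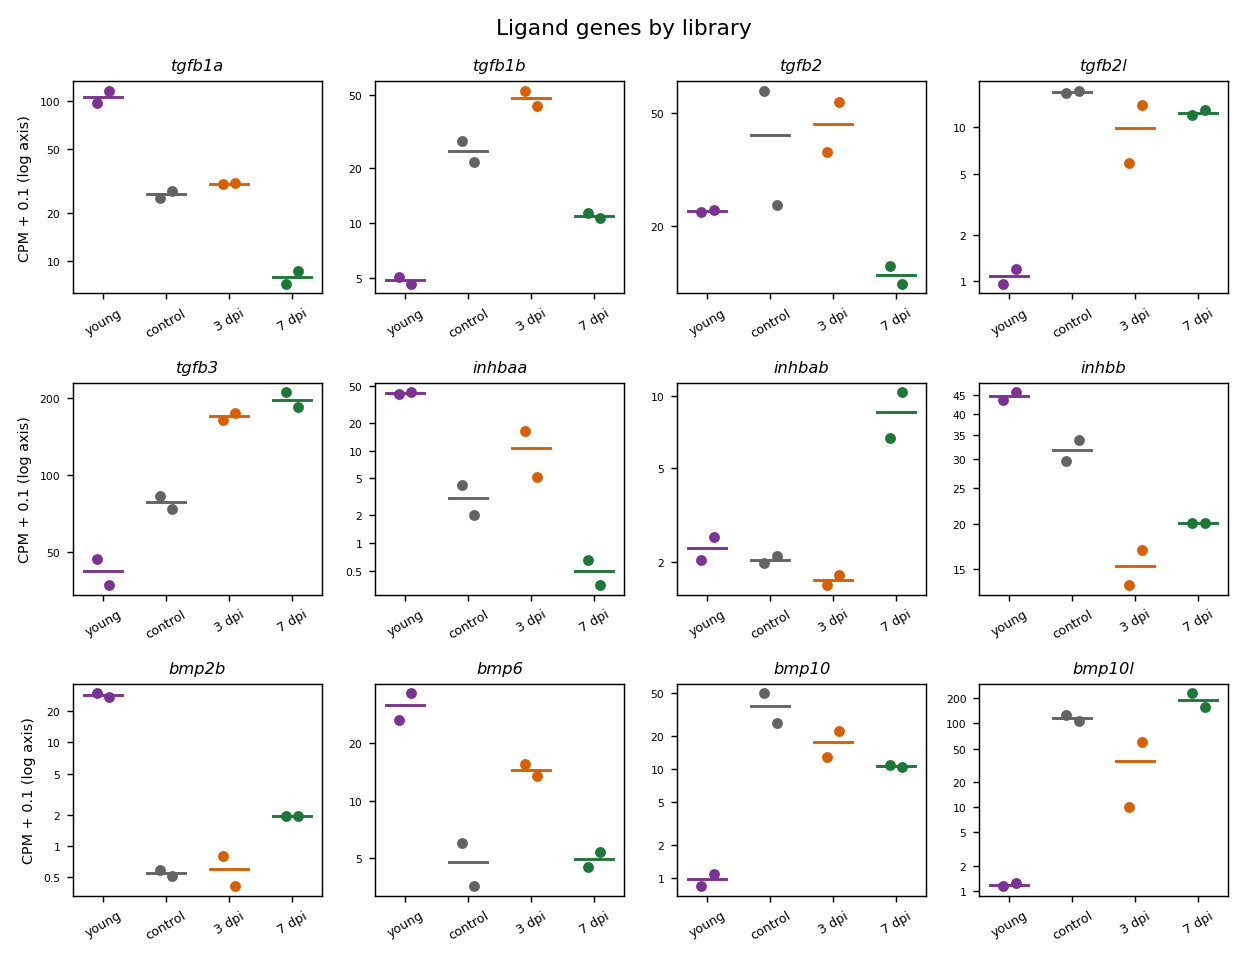
Levels of 12 ligand genes in each library: each panel is a gene, the vertical axis CPM + 0.1 on a log scale, points are libraries and lines group means (2 libraries per group). tgfb3 was at 164 and 174 CPM at 3 dpi and at 210 and 183 CPM at 7 dpi, above its control libraries, a gap that at 7 dpi was 0.06 (log2) under library totals; bmp10 and bmp10l were near 1 CPM in young hearts.

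Among the BMP ligands, bmp10 and bmp10l were far lower in young than in control hearts. BMP10 is a ligand made by heart muscle that supports growth of the chambers in mice. bmp10 had 0.743 and 0.999 CPM in young hearts, 49.3 and 26.1 in control hearts, 12.7 and 22.2 at 3 dpi and 10.7 and 10.3 at 7 dpi, and its young libraries lay far below every adult library. bmp10 fell in young hearts (-5.42 ± 0.44, edgeR adjusted p = 4.43e-06) and at 7 dpi (-1.84 ± 0.36, edgeR adjusted p = 0.00318), with -1.11 ± 0.35, edgeR adjusted p = 0.0572 at 3 dpi. bmp10l had 1.04 and 1.13 CPM in young hearts, 124 and 106 in control hearts, 9.83 and 60.3 at 3 dpi and 228 and 156 at 7 dpi. The 3 dpi libraries were below control but far apart from each other, whereas the 7 dpi libraries were above control. bmp10l fell in young hearts (-6.72 ± 0.76, edgeR adjusted p = 3.85e-05) and rose at 7 dpi against 3 dpi (2.45 ± 0.60, edgeR adjusted p = 0.00647). Under library totals that rise was 0.78 and did not pass. bmp10l had no call for either injured group against control (-1.72 ± 0.59, edgeR adjusted p = 0.0753 at 3 dpi). Summed cardiomyocyte markers stood in the same order over the groups as bmp10l, lowest in young hearts and highest at 7 dpi, whereas bmp10 was lowest among adults at 7 dpi. Their part in these values was not tested. bmp16, a BMP of fish related to BMP2 and BMP4, had 37.7 and 37.8 CPM in young hearts, 77 and 70.9 in control hearts, 83.5 and 70.5 at 3 dpi and 82.5 and 107 at 7 dpi. bmp16 fell in young hearts (-0.97 ± 0.21, edgeR adjusted p = 0.00259), at -0.37 under library totals, which did not pass.

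Of 12 tested BMP ligand genes, 6 rose and 3 fell in young hearts, beside 32.6% and 27.6% of all genes. Among the 12, bmp5, which rose, and bmp7a, which had no call, passed the filter on low counts through the young libraries. These counts are therefore not read as a direction of the ligands. bmp2b had 29.7 and 27.3 CPM in young hearts, 0.491 and 0.413 in control hearts, 0.694 and 0.311 at 3 dpi and 1.83 and 1.83 at 7 dpi. bmp2b rose in young hearts (5.97 ± 0.43, edgeR adjusted p = 2.37e-06) and, from very low levels, at 7 dpi against control (2.01 ± 0.46, edgeR adjusted p = 0.0066) and against 3 dpi (1.86 ± 0.44, edgeR adjusted p = 0.00493). Under library totals the values at 7 dpi were 0.78 and 0.18, and neither passed. bmp2a had 11.8 and 11 CPM in young hearts, 0.737 and 1.65 in control hearts, 0.0578 and 0.311 at 3 dpi and 2.37 and 2.24 at 7 dpi. bmp2a rose in young hearts (3.22 ± 0.53, edgeR adjusted p = 0.000438), fell at 3 dpi (-2.64 ± 0.68, edgeR adjusted p = 0.0265) and rose at 7 dpi against 3 dpi (3.56 ± 0.66, edgeR adjusted p = 0.00139). The fall at 3 dpi was lost without control replicate 2 or 3 dpi replicate 1 (adjusted p of 0.164 to 0.213). bmp4, a marker of the atrioventricular canal in larvae, had 21.3 and 19.9 CPM in young hearts, 2.29 and 1.83 in control hearts, 0.752 and 2.28 at 3 dpi and 0.639 and 0.83 at 7 dpi. bmp4 rose in young hearts (3.33 ± 0.47, edgeR adjusted p = 0.000152) with no call among adults. bmp5 had 28.1 and 22 CPM in young hearts, 1.06 and 0.295 in control hearts, 0.116 and 0.415 at 3 dpi and 0.913 and 1.24 at 7 dpi. bmp5 rose in young hearts (5.27 ± 0.57, edgeR adjusted p = 2.64e-05) and at 7 dpi against 3 dpi (1.97 ± 0.69, edgeR adjusted p = 0.0347), the second call lost without 3 dpi replicate 1, 7 dpi replicate 1 or 7 dpi replicate 2 (adjusted p of 0.0521 to 0.168). Under library totals the second value was 0.31 and did not pass. bmp3 had 28.2 and 29.1 CPM in young hearts, 3.36 and 3.48 in control hearts, 3.3 and 3.37 at 3 dpi and 4.29 and 3.73 at 7 dpi. The rise of bmp3 in young hearts was 3.06 ± 0.28, edgeR adjusted p = 9.39e-06.

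bmp6, known in mammals as a regulator of hepcidin, was the BMP ligand gene that rose at 3 dpi. It had 26.4 and 36.3 CPM in young hearts, 5.9 and 3.48 in control hearts, 15.4 and 13.4 at 3 dpi and 4.38 and 5.31 at 7 dpi. Its 3 dpi libraries were above all control and 7 dpi libraries. bmp6 rose at 3 dpi (1.63 ± 0.32, edgeR adjusted p = 0.00808) and in young hearts (2.75 ± 0.32, edgeR adjusted p = 4.79e-05) and fell at 7 dpi against 3 dpi (-1.57 ± 0.32, edgeR adjusted p = 0.00231). The call at 3 dpi was lost without control replicate 2 (adjusted p = 0.0629). The tested ligand genes bmp7a, bmp7b and bmp8a passed in no comparison, at 0 to 5.35 CPM. The proteases differ from the ligands in kind: bmp1a encodes a procollagen C-proteinase that also frees ligands from chordin. It had 59.5 and 50.4 CPM in young hearts, 20.5 and 16.8 in control hearts, 37.8 and 29.9 at 3 dpi and 34.6 and 34.4 at 7 dpi. bmp1a rose at 3 dpi (0.86 ± 0.22, edgeR adjusted p = 0.0247), at 7 dpi (0.89 ± 0.22, edgeR adjusted p = 0.00958, -0.37 under library totals) and in young hearts (1.56 ± 0.22, edgeR adjusted p = 0.000163). Its calls were lost at 3 dpi without control replicate 2 or 3 dpi replicate 1 (adjusted p of 0.145 to 0.173) and at 7 dpi without control replicate 2 (adjusted p = 0.0529). bmp1b stayed under 1 CPM with no call. The kinase gene bmp2k had 25 and 25.8 CPM in young hearts, 22.1 and 14.9 in control hearts, 34 and 28 at 3 dpi and 9.04 and 11 at 7 dpi. bmp2k fell at 7 dpi against control (-0.88 ± 0.26, edgeR adjusted p = 0.0219) and against 3 dpi (-1.63 ± 0.26, edgeR adjusted p = 0.000575). The bmp2k call against control was lost without control replicate 1 or 7 dpi replicate 1 (adjusted p of 0.106 to 0.138).

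Of the 10 GDF genes, 7 were tested. gdf10a, a relative of bmp3, had 29.5 and 26.6 CPM in young hearts, 0 and 0 in control hearts, 0 and 0 at 3 dpi and 0.0913 and 0.249 at 7 dpi. Both control libraries and both 3 dpi libraries held 0 counts, so young hearts were at least 272.0-fold higher than control, with 0 counts set to a floor of 3 per group (edgeR adjusted p = 4.58e-06). The call at 7 dpi against control (edgeR adjusted p = 0.043) rests on 1 and 3 counts, at least 1.69-fold higher, and was lost without control replicate 1, control replicate 2 or 7 dpi replicate 2 (adjusted p of 0.116 to 0.213). Against 3 dpi it was at least 2.12-fold higher (edgeR adjusted p = 0.0252), on the same counts. That call was lost without 3 dpi replicate 1, 3 dpi replicate 2 or 7 dpi replicate 2 (adjusted p of 0.0717 to 0.156). Neither gdf10a call at 7 dpi passed under library totals. gdf6a, needed for the eye and the skeleton, had 12.7 and 11.6 CPM in young hearts, 0.737 and 0.708 in control hearts, 0.868 and 1.45 at 3 dpi and 0.548 and 0.166 at 7 dpi. gdf6a rose in young hearts (4.06 ± 0.51, edgeR adjusted p = 7.76e-05), and its fall at 7 dpi against 3 dpi (-1.71 ± 0.61, edgeR adjusted p = 0.0368) was lost without 3 dpi replicate 2 or 7 dpi replicate 2 (adjusted p of 0.168 to 0.181). gdf11 rose in young hearts (2.72 ± 0.94, edgeR adjusted p = 0.028), at 0.854 and 1.42 CPM against 0.0819 and 0.236 CPM in control hearts. The gdf11 call was lost without young replicate 1, young replicate 2, control replicate 1 or control replicate 2 (adjusted p of 0.0735 to 0.19). gdf11 passed the filter on low counts through the young libraries. gdf3 fell in young hearts (-2.44 ± 0.89, edgeR adjusted p = 0.0359), at 0.26 and 0.193 CPM against 0.246 and 2.18 CPM in control hearts, where 1 library carried the level. The gdf3 call was lost under library totals (-1.77) and without young replicate 1, young replicate 2 or control replicate 2 (adjusted p of 0.137 to 0.938). gdf10b rose at 7 dpi against 3 dpi (3.06 ± 0.88, edgeR adjusted p = 0.0145), at 0.639 and 2.16 CPM at 7 dpi against 0.116 and 0.208 CPM at 3 dpi. The gdf10b call was lost under library totals (1.42) and without 3 dpi replicate 1 or 7 dpi replicate 2 (adjusted p of 0.0801 to 0.153). gdf5 and gdf7 had no call.

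Eye markers, chosen with results known, summed to 306 and 421 CPM in young hearts, against 0.0819 and 0.295 CPM in control hearts, where cryaa, opn1sw1, rho and rx2 were at 0 counts. Epidermis markers summed to 2440 and 2720 CPM in young hearts, against 436 and 685 CPM in control hearts. Their sums were 685 and 1270 CPM at 3 dpi and 1350 and 2800 CPM at 7 dpi. Of 8 tested, 6 rose in young hearts and 5 at 7 dpi against control, beside 32.6% and 18.7% of all genes. Cartilage and bone markers summed to 109 and 196 CPM in young hearts, against 3.3 and 4.75 CPM in control hearts. Liver and pancreas markers summed to 273 and 338 CPM in young hearts, 123 and 145 in control hearts and 328 and 686 at 7 dpi. Brain and nerve markers summed to 42.1 and 55.8 CPM in young hearts and 23.4 and 41.9 in control hearts. All of these tissue lists were chosen with results known. The young pools thus held RNA of markers of other tissues, as did adult libraries for some lists. Of 5 skeletal muscle markers tested, 4 rose and 1 fell in young hearts, beside 32.6% and 27.6% of all genes. Their sums were 1330 and 1350 CPM in young hearts, against 2800 and 3590 CPM in control hearts. The part of other tissue in the young levels of gdf6a, gdf10a, bmp5, the antagonists and the other members was not tested.

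The type II receptor genes tgfbr2a and tgfbr2b, the copies of the TGF beta type II receptor gene, moved in opposite directions at 3 dpi under TMM scaling. tgfbr2a had 26.1 and 28.9 CPM in young hearts, 21.8 and 13.1 in control hearts, 82.4 and 69.1 at 3 dpi and 2.47 and 1.83 at 7 dpi. Its 3 dpi libraries were above all others and its 7 dpi libraries far below all others. tgfbr2a rose at 3 dpi (2.12 ± 0.27, edgeR adjusted p = 0.00112), fell at 7 dpi against control (-3.02 ± 0.32, edgeR adjusted p = 0.000244) and fell at 7 dpi against 3 dpi (-5.14 ± 0.33, edgeR adjusted p = 2.12e-05). These 3 calls were made under every alternative, library totals included. In young hearts the difference was 0.66 ± 0.26, edgeR adjusted p = 0.0501. tgfbr2b had 31.3 and 23.7 CPM in young hearts, 86.3 and 113 in control hearts, 47.1 and 59.6 at 3 dpi and 187 and 207 at 7 dpi. Among adult hearts its order was the reverse: the 7 dpi libraries were the highest, the 3 dpi libraries lay below control, and the young libraries were the lowest. tgfbr2b fell at 3 dpi (-0.90 ± 0.24, edgeR adjusted p = 0.0285) and in young hearts (-1.86 ± 0.24, edgeR adjusted p = 0.0001), and rose at 7 dpi against control (0.98 ± 0.24, edgeR adjusted p = 0.00879) and against 3 dpi (1.88 ± 0.24, edgeR adjusted p = 0.000169). Under library totals tgfbr2b was -0.46 at 3 dpi, -0.26 at 7 dpi and 0.20 for 7 dpi against 3 dpi, and none of these passed. The call of its fall at 3 dpi and its rise at 7 dpi therefore depend on the scaling. Its calls against control were lost at 3 dpi without control replicate 2 or 3 dpi replicate 1 (adjusted p of 0.172 to 0.199) and at 7 dpi without control replicate 1 or 7 dpi replicate 2 (adjusted p of 0.0624 to 0.08).

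Macrophage markers summed to 553 and 1210 CPM at 3 dpi, against 265 and 320 CPM in control hearts. Of 10 tested, 9 rose, beside 9.05% of all genes. Neutrophil markers summed to 162 and 226 CPM at 3 dpi, against 194 and 443 CPM in control hearts. Of 6 tested, 3 rose and 2 fell, beside 9.05% and 6.55% of all genes. Smooth muscle and bulbus arteriosus markers summed to 808 and 877 CPM at 3 dpi, against 156 and 245 CPM in control hearts, and 7 of 9 tested rose. Epicardium and fibroblast markers summed to 892 and 908 CPM at 3 dpi, against 626 and 775 CPM in control hearts, with 1 of 8 tested rising. At 7 dpi macrophage markers summed to 212 and 261 CPM and smooth muscle markers to 1610 and 1960 CPM, where myh11b was at 0 counts. Of that smooth muscle sum, acta2 held 988 and 1180 CPM. Of the 9 smooth muscle markers 7 rose and 2 fell at 7 dpi against control, beside 18.7% and 20.0% of all genes. Under library totals 4 rose and 2 fell. Skeletal muscle markers summed to 7830 and 9160 CPM at 7 dpi, against 2800 and 3590 CPM in control hearts. The part of these cells in the changes of tgfbr2a, tgfb1b, ltbp1 and the other members was not tested.

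The BMP type II receptor genes fell together at 7 dpi. bmpr2a had 12.1 and 14.7 CPM in young hearts, 13.6 and 5.01 in control hearts, 10.6 and 15.3 at 3 dpi and 1.92 and 2.16 at 7 dpi. bmpr2b had 8.06 and 11 CPM in young hearts, 11.1 and 4.54 in control hearts, 8.91 and 13.4 at 3 dpi and 1.28 and 3.24 at 7 dpi. Both 7 dpi libraries were below every other library for each gene, and the control libraries lay far apart. bmpr2a fell at 7 dpi against control (-2.17 ± 0.48, edgeR adjusted p = 0.00546) and against 3 dpi (-2.66 ± 0.48, edgeR adjusted p = 0.00107). bmpr2b did the same (-1.76 ± 0.53, edgeR adjusted p = 0.0241 against control and -2.29 ± 0.53, edgeR adjusted p = 0.00476 against 3 dpi), but its call against control was lost without control replicate 1 or 7 dpi replicate 1 (adjusted p of 0.122 to 0.219). At 3 dpi neither passed.

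Of the activin type II receptor genes, acvr2aa had 37.1 and 42 CPM in young hearts, 46.9 and 47.1 in control hearts, 24 and 27.6 at 3 dpi and 33.2 and 36 at 7 dpi. acvr2aa fell at 3 dpi (-0.87 ± 0.20, edgeR adjusted p = 0.0155). That fall was lost under library totals (-0.43) and without control replicate 2 or 3 dpi replicate 1 (adjusted p of 0.0643 to 0.123). acvr2ab had 3.57 and 6.57 CPM in young hearts, 6.31 and 1.18 in control hearts, 1.79 and 3.37 at 3 dpi and 0 and 0.498 at 7 dpi. acvr2ab fell at 7 dpi (-3.80 ± 1.08, edgeR adjusted p = 0.0179) and against 3 dpi (-3.30 ± 1.08, edgeR adjusted p = 0.0258). The control libraries lay far apart, and the calls were lost against control without control replicate 1 or 7 dpi replicate 1 (adjusted p of 0.0786 to 0.189) and against 3 dpi without 3 dpi replicate 2 or 7 dpi replicate 1 (adjusted p of 0.0883 to 0.112). acvr2b had 7.8 and 9.15 CPM in young hearts, 0.41 and 0.413 in control hearts, 0.463 and 0.623 at 3 dpi and 0 and 0 at 7 dpi. Its 7 dpi libraries held 0 counts, at least 3.15-fold lower than control (edgeR adjusted p = 0.00958) and at least 4.19-fold lower than 3 dpi (edgeR adjusted p = 0.00343). acvr2b rose in young hearts (4.34 ± 0.53, edgeR adjusted p = 9.92e-05).

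The TGF beta type I receptor gene tgfbr1b had 3.45 and 5.93 CPM in young hearts, 4.26 and 1.36 in control hearts, 4.51 and 5.19 at 3 dpi and 0 and 0 at 7 dpi. No read was counted in either 7 dpi library, whereas the young libraries overlapped those of control and 3 dpi. At 7 dpi it was at least 19.7-fold lower than control (edgeR adjusted p = 0.00169) and at least 37.3-fold lower than 3 dpi (edgeR adjusted p = 0.000386), with the same floor. Its copy tgfbr1a had 4.57 and 6.51 CPM in young hearts, 1.06 and 0.885 in control hearts, 1.27 and 1.25 at 3 dpi and 1 and 0.498 at 7 dpi. tgfbr1a rose in young hearts (2.51 ± 0.51, edgeR adjusted p = 0.00174), with no call among adults. The co-receptor gene tgfbr3, betaglycan, which presents TGF beta to its receptors, had 8.21 and 14.9 CPM in young hearts, 12 and 4.01 in control hearts, 10.6 and 11.6 at 3 dpi and 0.731 and 0.498 at 7 dpi. Its 7 dpi libraries were far below all others. tgfbr3 fell against control (-3.69 ± 0.62, edgeR adjusted p = 0.00153) and against 3 dpi (-4.17 ± 0.62, edgeR adjusted p = 0.000368), and in young hearts the difference from control was 0.54 ± 0.47, edgeR adjusted p = 0.343.

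**Figure D3:**
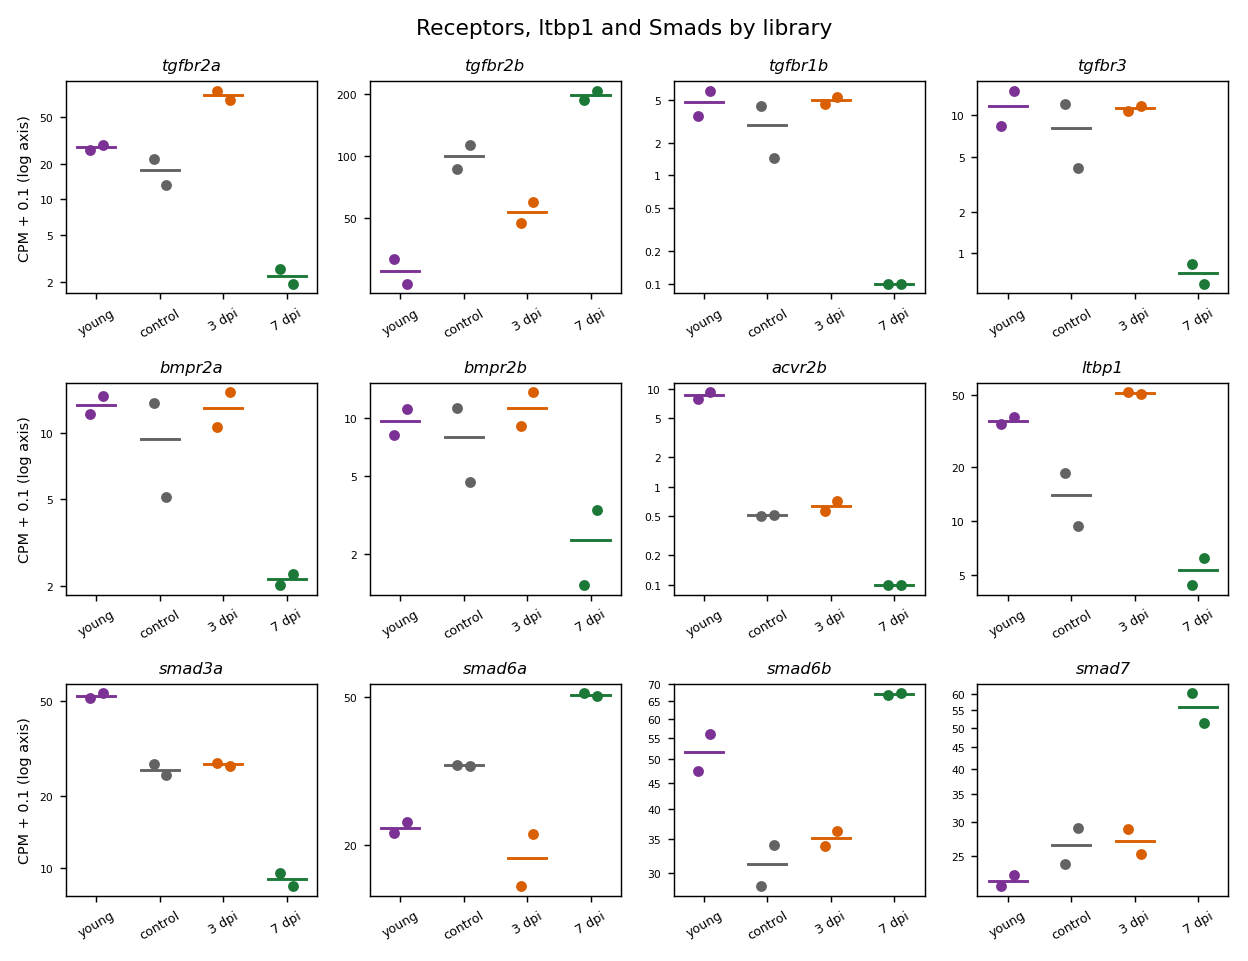
Levels of 12 receptor, ltbp1 and Smad genes in each library: the vertical axis is CPM + 0.1 on a log scale, points are libraries and lines group means (2 libraries per group). tgfbr2a was at 82.4 and 69.1 CPM at 3 dpi and at 2.47 and 1.83 CPM at 7 dpi, while tgfbr2b was at 47.1 and 59.6 CPM at 3 dpi and at 187 and 207 CPM at 7 dpi, a rise against control that turned to -0.26 (log2) under library totals. tgfbr1b and acvr2b had 0 counts at 7 dpi and are drawn at 0.1; the rises of smad6a, smad6b and smad7 at 7 dpi against control turned below 0 under library totals.

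The activin type I receptor genes also fell at 7 dpi. acvr1ba had 98.2 and 127 CPM in young hearts, 49.5 and 49.4 in control hearts, 70.2 and 77.7 at 3 dpi and 31 and 29.5 at 7 dpi. acvr1ba fell at 7 dpi against control (-0.71 ± 0.21, edgeR adjusted p = 0.0209), lost without control replicate 1, 7 dpi replicate 1 or 7 dpi replicate 2 (adjusted p of 0.0598 to 0.0886), and against 3 dpi (-1.29 ± 0.21, edgeR adjusted p = 0.000594), and rose in young hearts (1.19 ± 0.21, edgeR adjusted p = 0.000606). acvr1bb had 3.79 and 4.77 CPM in young hearts, 4.01 and 0.649 in control hearts, 1.33 and 2.7 at 3 dpi and 0 and 0.166 at 7 dpi. With 2 counts over the 7 dpi libraries, its ratio was 0.0423 (95% interval 0.005 to 0.159, from the counts) of 7 dpi to control and 0.0424 (95% interval 0.00504 to 0.159, from the counts) of 7 dpi to 3 dpi. Both passed (edgeR adjusted p = 0.0119 and 0.0101), and both were lost on leaving out a library: against control without control replicate 1 or 7 dpi replicate 1 (adjusted p of 0.0626 to 0.113), against 3 dpi without 7 dpi replicate 1 (adjusted p = 0.0563). Among BMP type I receptor genes, bmpr1aa had 88.7 and 103 CPM in young hearts, 45.3 and 53.3 in control hearts, 36.1 and 45.4 at 3 dpi and 20.8 and 26.4 at 7 dpi. bmpr1aa fell at 7 dpi against control (-1.06 ± 0.22, edgeR adjusted p = 0.00454) and against 3 dpi (-0.79 ± 0.22, edgeR adjusted p = 0.0132), the second lost without 3 dpi replicate 2 or 7 dpi replicate 1 (adjusted p of 0.0778 to 0.112), and rose in young hearts (0.96 ± 0.22, edgeR adjusted p = 0.00352). bmpr1ab had 36.3 and 38.2 CPM in young hearts, 34.6 and 27.2 in control hearts, 41.6 and 44.9 at 3 dpi and 27.9 and 23.4 at 7 dpi. bmpr1ab fell at 7 dpi against 3 dpi (-0.76 ± 0.21, edgeR adjusted p = 0.0125). The bmpr1ab call was lost without 7 dpi replicate 2 (adjusted p = 0.0795). The endothelial receptor gene acvrl1, whose protein binds BMP9 and BMP10, had 27.2 and 34.2 CPM in young hearts, 52.8 and 75.6 in control hearts, 58.2 and 70 at 3 dpi and 50 and 47 at 7 dpi. acvrl1 fell in young hearts (-1.07 ± 0.23, edgeR adjusted p = 0.00275), at -0.44 under library totals, which did not pass. It had no call among adults. acvr1l, a BMP type I receptor of zebrafish needed for dorsoventral patterning, had 80.9 and 86.6 CPM in young hearts, 50 and 55.6 in control hearts, 43.6 and 50.1 at 3 dpi and 36.5 and 51.1 at 7 dpi. acvr1l rose in young hearts (0.67 ± 0.22, edgeR adjusted p = 0.0216). The acvr1l call was lost without young replicate 1, young replicate 2 or control replicate 1 (adjusted p of 0.0771 to 0.138).

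Receptor genes of low level gave calls that rest on few counts. bmpr1ba had 5.05 and 4.8 CPM in young hearts, 0.901 and 0.472 in control hearts, 0.0578 and 0.104 at 3 dpi and 1.1 and 0.415 at 7 dpi. Its 3 dpi libraries held 1 and 2 counts, a ratio of 0.126 (95% interval 0.0239 to 0.428, from the counts) of 3 dpi to control, with edgeR adjusted p = 0.0403. It was lost under library totals (-2.55) and without control replicate 1, control replicate 2, 3 dpi replicate 1 or 3 dpi replicate 2 (adjusted p of 0.0735 to 0.214). bmpr1ba rose in young hearts (2.86 ± 0.60, edgeR adjusted p = 0.00206). At 7 dpi against 3 dpi the ratio was 9.01 (95% interval 2.6 to 48.0, from the counts), with edgeR adjusted p = 0.0116. It was lost under library totals (1.44) and without 3 dpi replicate 1 or 7 dpi replicate 1 (adjusted p of 0.0615 to 0.0831). The more abundant bmpr1bb ID had 2.93 and 1.64 CPM in young hearts, 0.491 and 0.118 in control hearts, 0.405 and 0.311 at 3 dpi and 0 and 0 at 7 dpi, rose in young hearts (2.96 ± 0.79, edgeR adjusted p = 0.00926) and held 0 counts at 7 dpi, at least 2.73-fold lower than 3 dpi (edgeR adjusted p = 0.028). The second ID of that symbol had no call. Both bmpr1ba and the more abundant bmpr1bb ID passed the filter on low counts through the young libraries. The bmpr1bb calls were lost in young hearts without young replicate 1 or control replicate 2 (adjusted p of 0.0836 to 0.115) and against 3 dpi without 3 dpi replicate 1, 7 dpi replicate 1 or 7 dpi replicate 2 (adjusted p of 0.0686 to 0.0885). The adaptor gene tgfbrap1 had 12.1 and 12.5 CPM in young hearts, 3.69 and 2.24 in control hearts, 3.93 and 5.4 at 3 dpi and 2.74 and 1.33 at 7 dpi, rose in young hearts (2.07 ± 0.42, edgeR adjusted p = 0.00177) and fell at 7 dpi against 3 dpi (-1.20 ± 0.44, edgeR adjusted p = 0.0416). The tgfbrap1 fall was lost without 3 dpi replicate 2 or 7 dpi replicate 2 (adjusted p of 0.162 to 0.192). Over all 18 type I and type II receptor genes, 9 fell and 1 rose at 7 dpi against control, beside 20.0% and 18.7% of all genes, and 11 fell and 2 rose against 3 dpi, beside 28.1% and 22.8%. Under library totals 9 type I and 6 type II receptor genes fell in each of these comparisons, and tgfbr2b and bmpr1ba did not rise. Of all 19330 genes tested, 11036 fell against control and 13072 against 3 dpi under that scaling. Among 35 tested genes of giant proteins, 29 fell at 7 dpi against control, and their relation to the receptor values was not tested.

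Among Smads of the TGF beta and activin branch, smad3a had 51.7 and 54 CPM in young hearts, 27.1 and 24.5 in control hearts, 27.6 and 26.7 at 3 dpi and 9.41 and 8.3 at 7 dpi. Both 7 dpi libraries were below all others and both young libraries above. smad3a fell at 7 dpi against control (-1.54 ± 0.21, edgeR adjusted p = 0.000603) and against 3 dpi (-1.62 ± 0.21, edgeR adjusted p = 0.000172) and rose in young hearts (1.04 ± 0.20, edgeR adjusted p = 0.00119), whereas at 3 dpi its difference from control was 0.075 ± 0.20, edgeR adjusted p = 0.852. smad3b had 19.4 and 21.5 CPM in young hearts, 23.9 and 19.3 in control hearts, 14.3 and 18.2 at 3 dpi and 10.6 and 13 at 7 dpi. smad3b fell at 7 dpi against control (-0.87 ± 0.25, edgeR adjusted p = 0.0201). For smad3b the call was lost without control replicate 1 or 7 dpi replicate 1 (adjusted p of 0.1 to 0.102). smad2 had 41.6 and 32.2 CPM in young hearts, 24.6 and 21.6 in control hearts, 22.9 and 23.7 at 3 dpi and 18.4 and 20.2 at 7 dpi. smad2 rose in young hearts (0.68 ± 0.22, edgeR adjusted p = 0.0197). For smad2 it was lost without young replicate 1, control replicate 1 or control replicate 2 (adjusted p of 0.0523 to 0.222).

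Among Smads of the BMP branch, smad1 had 44.3 and 42.8 CPM in young hearts, 47.3 and 41.2 in control hearts, 67.2 and 75.8 at 3 dpi and 62 and 56.8 at 7 dpi. smad1 rose at 3 dpi (0.69 ± 0.19, edgeR adjusted p = 0.0356). That rise was lost without control replicate 1, control replicate 2, 3 dpi replicate 1 or 3 dpi replicate 2 (adjusted p of 0.0642 to 0.168). smad5 had 50.8 and 49.5 CPM in young hearts, 26.4 and 31.2 in control hearts, 30.7 and 31.3 at 3 dpi and 46.6 and 38.7 at 7 dpi. smad5 rose in young hearts (0.80 ± 0.20, edgeR adjusted p = 0.00584) and at 7 dpi (0.57 ± 0.20, edgeR adjusted p = 0.0472), at -0.68 under library totals, and the calls were lost at 7 dpi without control replicate 1, control replicate 2, 7 dpi replicate 1 or 7 dpi replicate 2 (adjusted p of 0.0517 to 0.264) and in young hearts without control replicate 1 (adjusted p = 0.0528). smad9 had 56.7 and 52.3 CPM in young hearts, 27.4 and 33.1 in control hearts, 21.2 and 22.4 at 3 dpi and 42.1 and 40.1 at 7 dpi. Its 7 dpi libraries were above its 3 dpi libraries, a rise of 0.91 ± 0.20, edgeR adjusted p = 0.00349, at -0.78 under library totals, and it rose in young hearts (0.85 ± 0.20, edgeR adjusted p = 0.00389). The common Smad gene smad4a had 16.3 and 14.8 CPM in young hearts, 22.7 and 16.3 in control hearts, 15.5 and 16.7 at 3 dpi and 16.4 and 17.6 at 7 dpi, with no call in any comparison.

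All 3 inhibitory Smad genes were above control at 7 dpi under TMM scaling, and all 3 were below control under library totals. smad6a had 21.4 and 22.9 CPM in young hearts, 32.8 and 32.6 in control hearts, 15.4 and 21.3 at 3 dpi and 51.1 and 50.1 at 7 dpi. No groups overlapped, although the young and 3 dpi libraries nearly met. smad6a fell at 3 dpi (-0.83 ± 0.22, edgeR adjusted p = 0.0284) and in young hearts (-0.56 ± 0.22, edgeR adjusted p = 0.043), and rose at 7 dpi against control (0.63 ± 0.22, edgeR adjusted p = 0.0401) and against 3 dpi (1.46 ± 0.22, edgeR adjusted p = 0.000395). Under library totals its values against control were -0.40 at 3 dpi, which did not pass, and 0.04 in young hearts. Its calls against control were lost at 3 dpi without control replicate 1, control replicate 2 or 3 dpi replicate 1 (adjusted p of 0.0565 to 0.22), at 7 dpi without control replicate 1, control replicate 2, 7 dpi replicate 1 or 7 dpi replicate 2 (adjusted p of 0.106 to 0.136) and in young hearts without young replicate 1, young replicate 2, control replicate 1 or control replicate 2 (adjusted p of 0.0634 to 0.203). smad6b had 47.3 and 55.9 CPM in young hearts, 28.2 and 34 in control hearts, 33.8 and 36.2 at 3 dpi and 66.7 and 67.1 at 7 dpi, with its 7 dpi libraries the highest. smad6b rose at 7 dpi against control (1.11 ± 0.20, edgeR adjusted p = 0.00222) and against 3 dpi (0.93 ± 0.20, edgeR adjusted p = 0.00315) and in young hearts (0.73 ± 0.20, edgeR adjusted p = 0.00916), the last lost without young replicate 2 or control replicate 1 (adjusted p of 0.0816 to 0.101). smad7 had 21.2 and 22.5 CPM in young hearts, 23.9 and 29 in control hearts, 28.9 and 25.2 at 3 dpi and 60 and 51.2 at 7 dpi, again highest at 7 dpi. smad7 rose at 7 dpi against control (1.07 ± 0.21, edgeR adjusted p = 0.00314) and against 3 dpi (1.04 ± 0.21, edgeR adjusted p = 0.00217), and its young value was -0.28 ± 0.21, edgeR adjusted p = 0.268. Under library totals the values at 7 dpi against control were -0.62 for smad6a, -0.14 for smad6b and -0.18 for smad7, beside a median of all genes of -1.37. Against 3 dpi they were -0.22, -0.76 and -0.66 in the same order.

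The latent binding protein gene ltbp1, which anchors latent TGF beta in the matrix, had 34.4 and 37.8 CPM in young hearts, 18.3 and 9.26 in control hearts, 52.1 and 51 at 3 dpi and 4.29 and 6.14 at 7 dpi for its abundant ID. The 3 dpi libraries agreed closely and were the highest, and the 7 dpi libraries the lowest. ltbp1 rose at 3 dpi (1.91 ± 0.31, edgeR adjusted p = 0.00348) and in young hearts (1.40 ± 0.31, edgeR adjusted p = 0.00267), and fell at 7 dpi against control (-1.39 ± 0.33, edgeR adjusted p = 0.00808) and against 3 dpi (-3.30 ± 0.34, edgeR adjusted p = 5.66e-05). The fall against control was lost without control replicate 1 or 7 dpi replicate 1 (adjusted p of 0.0549 to 0.063), while the other 3 calls were made with any library left out. The second ID of that symbol stayed under 1 CPM with no call.

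**Figure D4:**
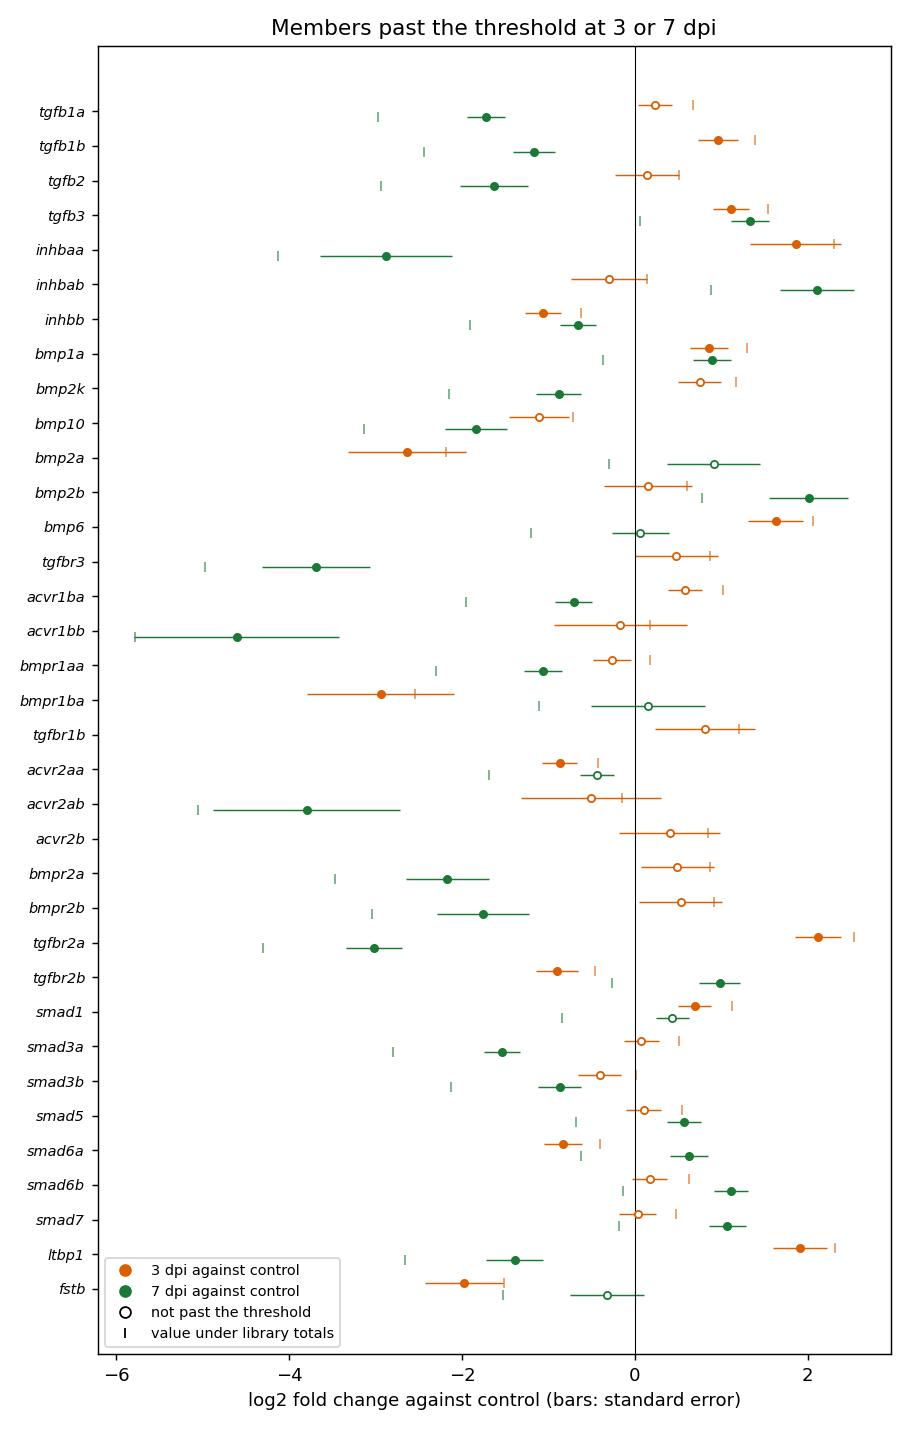
Log2 fold changes against control at 3 dpi (orange) and 7 dpi (green) of 35 of the 36 members past the threshold in either comparison: points are edgeR values under TMM scaling with bars of 1 standard error, open where not past the threshold, and vertical ticks mark the value under library totals. Values with 0 counts in a group are not drawn (gdf10a as a whole, tgfbr1b and acvr2b at 7 dpi). tgfbr2a lies at 2.12 and -3.02; the green ticks of tgfbr2b, bmp1a, smad5, smad6a, smad6b and smad7 lie below 0 although their points lie above it.

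Of the 11 antagonist genes 9 were tested. Among them grem1b, nog1, grem2a and grem2b, with at most 6 counts in any adult library, passed the filter on low counts through the young libraries, so no count over the antagonists is given for young hearts. The follistatin gene fsta, whose protein binds activins, had 98.9 and 87.8 CPM in young hearts, 0.983 and 1.06 in control hearts, 1.62 and 0.363 at 3 dpi and 0.548 and 0.249 at 7 dpi. Young hearts were far above all adult libraries (6.50 ± 0.49, edgeR adjusted p = 3.13e-06), and no adult comparison passed. fstb had 12.3 and 14.9 CPM in young hearts, 9.42 and 19 in control hearts, 2.08 and 5.14 at 3 dpi and 11 and 11.9 at 7 dpi. It did not pass in young hearts (-0.076 ± 0.42, edgeR adjusted p = 0.886), fell at 3 dpi (-1.98 ± 0.45, edgeR adjusted p = 0.0153) and rose at 7 dpi against 3 dpi (1.66 ± 0.45, edgeR adjusted p = 0.0106), at -0.013 under library totals. The fstb calls were lost at 3 dpi without control replicate 2 or 3 dpi replicate 1 (adjusted p of 0.0959 to 0.136) and against 3 dpi without 3 dpi replicate 1 (adjusted p = 0.0635).

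The gremlin genes and nog1 were near the detection limit in adult hearts. grem1b had 5.27 and 3.77 CPM in young hearts and 0 counts in all 6 adult libraries, at least 43.4-fold higher in young hearts than in control (edgeR adjusted p = 0.000372). grem2a had 3.23 and 2.55 CPM in young hearts, against 0.491 and 0 CPM in control hearts (3.67 ± 1.03, edgeR adjusted p = 0.0119). grem2b had 1.41 and 2.16 CPM in young hearts, against 0.246 and 0.118 CPM in control hearts (3.31 ± 0.89, edgeR adjusted p = 0.00851). Both gremlin calls were lost on leaving out a library, grem2a without young replicate 1 or control replicate 2 (adjusted p of 0.0553 to 0.0669) and grem2b without young replicate 2 or control replicate 2 (adjusted p of 0.0908 to 0.101). The noggin gene nog1 had 2.34 and 2.26 CPM in young hearts, against 0 and 0.059 CPM in control hearts, which held 1 count. Its ratio of young to control was 66.9 (95% interval 11.8 to 2660.0, from the counts), with edgeR adjusted p = 0.00144. nog2 had 12 and 9.6 CPM in young hearts, 3.28 and 3.3 in control hearts, 1.85 and 2.08 at 3 dpi and 1.92 and 3.48 at 7 dpi. nog2 rose in young hearts (1.71 ± 0.39, edgeR adjusted p = 0.00326). nog3 had 7.69 and 6.7 CPM in young hearts, 0.737 and 0.354 in control hearts, 0 and 0.571 at 3 dpi and 0.457 and 3.4 at 7 dpi. nog3 rose in young hearts (3.75 ± 1.00, edgeR adjusted p = 0.00799). The nog3 call was lost without control replicate 2 (adjusted p = 0.0728). chrdl2, a chordin-like antagonist, had no call.

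Other genes of the pathway were taken from lists by role, and 63 of the 72 found were tested. At 3 dpi 12 rose and 2 fell, beside 9.05% and 6.55% of all genes, and 23 rose and 2 fell under library totals. Of 4 other ligand genes tested, 1 rose at 3 dpi and 1 fell in young hearts. The rise was that of ndr2, on 16 and 13 counts at 3 dpi against 1 and 0 in control hearts. ndr2 passed the filter on low counts through the 3 dpi libraries and could hardly have fallen there, and it is among the 12 rises. Its rise was lost in DESeq2, without a filter on low counts and with the replicate number as a block. Leaving out any 1 library of these groups also lost it. Against control 12 rose and 20 fell at 7 dpi, beside 18.7% and 20.0% of all genes, and 5 rose and 43 fell under library totals. Against 3 dpi 11 rose and 24 fell at 7 dpi, beside 22.8% and 28.1%, and 1 rose and 47 fell under library totals. The 24 falls include that of ndr2, which passed the filter through the 3 dpi libraries. In young hearts 29 rose and 14 fell, beside 32.6% and 27.6%, and 34 rose and 4 fell under library totals. The young rises include msx1a, msx2a and msx2b, which passed the filter on low counts through the young libraries. Of 16 extracellular modulators, 3 rose and 1 fell at 3 dpi, 3 rose and 5 fell at 7 dpi against control, and 12 rose and 3 fell in young hearts. Under library totals the counts were 5 and 1, 3 and 12, and 13 and 1. htra1a, a secreted protease that cleaves matrix and TGF beta family proteins, had 12.8 and 13.4 CPM in young hearts, 0.491 and 0.472 in control hearts, 7 and 7.94 at 3 dpi and 31.3 and 30.4 at 7 dpi. htra1a rose at 3 dpi (3.94 ± 0.33, edgeR adjusted p = 0.00011), at 7 dpi (5.98 ± 0.33, edgeR adjusted p = 3.25e-05) and in young hearts (4.75 ± 0.32, edgeR adjusted p = 1.87e-06). fstl1a, a follistatin-like secreted protein, had 44.3 and 49.5 CPM in young hearts, 0.655 and 0.767 in control hearts, 14.1 and 6.64 at 3 dpi and 12.3 and 19.7 at 7 dpi. fstl1a rose at 3 dpi (3.84 ± 0.46, edgeR adjusted p = 0.00077) and at 7 dpi (4.47 ± 0.46, edgeR adjusted p = 0.000228). Its paralog fstl1b went the other way at 7 dpi. fstl1b had 464 and 448 CPM in control hearts, 509 and 594 at 3 dpi and 260 and 246 at 7 dpi. It fell at 7 dpi against control, a call lost without 7 dpi replicate 1 (-0.91) or 7 dpi replicate 2 (-0.85). bambia, a decoy receptor that lacks the kinase, had 152 and 164 CPM in young hearts, 25.9 and 24.3 in control hearts, 26 and 28.1 at 3 dpi and 123 and 101 at 7 dpi. bambia rose at 7 dpi against control (2.16 ± 0.21, edgeR adjusted p = 0.000179) and against 3 dpi (2.05 ± 0.21, edgeR adjusted p = 5.50e-05). Under library totals these values were 0.90 and 0.35, and the value against 3 dpi did not pass. sostdc1a, a BMP antagonist, had 2.82 and 2.06 CPM in young hearts, 23.3 and 41.5 in control hearts, 6.36 and 13.2 at 3 dpi and 56.9 and 53.9 at 7 dpi, fell at 3 dpi (-1.73 ± 0.37, edgeR adjusted p = 0.0121), lost without control replicate 2 or 3 dpi replicate 1 (adjusted p of 0.0797 to 0.107), and rose at 7 dpi against 3 dpi (2.50 ± 0.38, edgeR adjusted p = 0.000388), which under library totals was 0.82 and did not pass.

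Of 18 intracellular modulators, 2 rose and 1 fell at 3 dpi, beside 9.05% and 6.55% of all genes. At 7 dpi against control 2 rose and 10 fell, beside 18.7% and 20.0% of all genes. The share called at 3 dpi was 16.7%, near the 15.6% of all genes. Under library totals 4 rose and 1 fell at 3 dpi, and 16 fell at 7 dpi, where neither rise passed. The co-repressor gene skila had 7.37 and 2.06 CPM in control hearts, 17.2 and 17.2 at 3 dpi and 1.19 and 2.16 at 7 dpi. pmepa1, whose protein damps Smad activation, had 4.26 and 1.83 CPM in control hearts, 11 and 8.98 at 3 dpi and 0.731 and 0.332 at 7 dpi. The 3 dpi libraries were the highest for each, and the 7 dpi libraries were the lowest for pmepa1 and overlapped control for skila. skila rose at 3 dpi (1.89 ± 0.50, edgeR adjusted p = 0.0289) and fell at 7 dpi against 3 dpi (-3.35 ± 0.55, edgeR adjusted p = 0.000684). pmepa1 rose at 3 dpi (1.73 ± 0.49, edgeR adjusted p = 0.0371) and fell at 7 dpi against control (-2.50 ± 0.61, edgeR adjusted p = 0.00912) and against 3 dpi (-4.23 ± 0.60, edgeR adjusted p = 0.00028). The rises at 3 dpi were lost for skila without control replicate 2, 3 dpi replicate 1 or 3 dpi replicate 2 (adjusted p of 0.0534 to 0.107) and for pmepa1 without control replicate 2, 3 dpi replicate 1 or 3 dpi replicate 2 (adjusted p of 0.0515 to 0.209), and the pmepa1 fall against control without control replicate 1 or 7 dpi replicate 2 (adjusted p of 0.0523 to 0.0678). The ubiquitin ligase gene smurf2, whose product targets Smads and receptors, had 16.9 and 12.9 CPM in control hearts, 18.4 and 19.1 at 3 dpi and 5.21 and 6.14 at 7 dpi. smurf2 fell at 7 dpi (-1.39 ± 0.26, edgeR adjusted p = 0.00255). tab1, a partner of the kinase TAK1, had 17.8 and 19.3 CPM in control hearts, 15 and 11.7 at 3 dpi and 46.1 and 41.5 at 7 dpi. tab1 rose at 7 dpi (1.24 ± 0.24, edgeR adjusted p = 0.00307), at -0.013 under library totals.

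Of 12 genes known as responsive to TGF beta, 5 rose at 3 dpi, beside 9.05% of all genes. None lay lower at an unadjusted p under 0.05 in the edgeR test. The median log2 fold change of the list was 1.06 beside 0.0025 over all genes. Under library totals 10 rose at 3 dpi, and 2 rose and 10 fell at 7 dpi against control. The fibronectin gene fn1a had 652 and 895 CPM in young hearts, 56.7 and 40.4 in control hearts, 480 and 240 at 3 dpi and 28.6 and 24.4 at 7 dpi. fn1a rose at 3 dpi (2.89 ± 0.36, edgeR adjusted p = 0.00099), and so did its copy fn1b (1.66 ± 0.33, edgeR adjusted p = 0.00925). ctgfa, the gene of a matrix-associated growth factor, had 163 and 168 CPM in young hearts, 80 and 76.8 in control hearts, 366 and 202 at 3 dpi and 81.4 and 84.1 at 7 dpi, and its rise at 3 dpi was 1.86 ± 0.28, edgeR adjusted p = 0.0024. The fn1b call was lost without control replicate 2 or 3 dpi replicate 1 (adjusted p of 0.0534 to 0.0723). tagln had 19.4 and 25.7 CPM in control hearts, 206 and 101 at 3 dpi and 420 and 513 at 7 dpi. acta2 had 89.8 and 41.9 CPM in control hearts, 234 and 244 at 3 dpi and 988 and 1180 at 7 dpi. Both encode smooth muscle contractile proteins and are also among the smooth muscle markers above. tagln rose at 3 dpi (2.77 ± 0.34, edgeR adjusted p = 0.000901) and at 7 dpi (4.37 ± 0.36, edgeR adjusted p = 0.000148), and acta2 likewise (1.86 ± 0.34, edgeR adjusted p = 0.0057 and 4.04 ± 0.37, edgeR adjusted p = 0.000172). The collagen genes col1a1a, col1a1b and col1a2 were at 0.62, 0.43 and 0.45 at 3 dpi and did not pass. At 7 dpi against control tagln and acta2 rose, and tgfbi (-0.75 ± 0.23, edgeR adjusted p = 0.0273) and postna (-0.92 ± 0.19, edgeR adjusted p = 0.00433), genes of matrix proteins, fell. The tgfbi call was lost without control replicate 1, control replicate 2, 7 dpi replicate 1 or 7 dpi replicate 2 (adjusted p of 0.0503 to 0.128).

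Of 13 genes known as responsive to BMP, 1 rose at 3 dpi, beside 9.05% of all genes. At 7 dpi against control 5 rose and 3 fell, beside 18.7% and 20.0% of all genes. In young hearts 11 rose and 1 fell, beside 32.6% and 27.6%. The young rises count msx1a and msx2a, which had at most 2 counts in any adult library and passed the filter on low counts through the young libraries. They also count msx2b, which passed it in the same way, with 24 counts in 7 dpi replicate 1 and at most 6 in any other adult library. The young counts of this list are therefore not read as a direction. Under library totals 3 rose at 3 dpi, 5 fell at 7 dpi, where none of the 5 rises passed, and 11 rose in young hearts. The id genes encode inhibitors of basic helix-loop-helix factors. id3 had 56.5 and 60.1 CPM in young hearts, 20.7 and 25.9 in control hearts, 23.5 and 28.4 at 3 dpi and 58 and 75.4 at 7 dpi. Its 7 dpi and young libraries lay above control and 3 dpi libraries. At 7 dpi id1 (0.95 ± 0.32, edgeR adjusted p = 0.0348), id2b (1.36 ± 0.27, edgeR adjusted p = 0.00349), id3 (1.52 ± 0.23, edgeR adjusted p = 0.000875) and id4 (1.30 ± 0.32, edgeR adjusted p = 0.00946) rose. Under library totals these values were -0.28, 0.13, 0.28 and 0.06, none past the threshold. The calls of id1 and id4 were lost on leaving out a library: id1 without control replicate 1, 7 dpi replicate 1 or 7 dpi replicate 2 (adjusted p of 0.0623 to 0.207), id4 without control replicate 1 (adjusted p = 0.0727). The fifth rise at 7 dpi was msx2b (2.42 ± 0.77, edgeR adjusted p = 0.0318), at 2.19 and 0.498 CPM against 0.328 and 0.177 CPM in control hearts. The msx2b call was lost under library totals (1.17) and without control replicate 1, control replicate 2 or 7 dpi replicate 1 (adjusted p of 0.0961 to 0.343). The T-box genes tbx2a (-1.44 ± 0.46, edgeR adjusted p = 0.029) and tbx2b (-2.26 ± 0.34, edgeR adjusted p = 0.000927), of which tbx2b marks the atrioventricular canal in larvae, and msx3 (-2.62 ± 0.90, edgeR adjusted p = 0.0412) fell. Of these falls, tbx2a was lost without control replicate 1 or 7 dpi replicate 1 (adjusted p of 0.122 to 0.14) and msx3 without control replicate 1 or 7 dpi replicate 2 (adjusted p of 0.161 to 0.224). The median at 7 dpi was -0.72 over the fitted values, and 0.11 with genes at 0 counts in a group set to their bound or left out, so the list had no common direction. hamp, the hepcidin gene, had 62 and 65.7 CPM in young hearts, 0.246 and 0.118 in control hearts, 2.37 and 0.675 at 3 dpi and 0 and 0 at 7 dpi. hamp rose at 3 dpi (3.07 ± 0.74, edgeR adjusted p = 0.0226), lost without control replicate 1, control replicate 2 or 3 dpi replicate 1 (adjusted p of 0.0684 to 0.188), and in young hearts (8.48 ± 0.63, edgeR adjusted p = 5.11e-06). Its 7 dpi libraries held 0 counts. In young hearts the msx genes rose, msx2b by 7.02 ± 0.67, edgeR adjusted p = 2.02e-05 and msx1b by 4.11 ± 0.59, edgeR adjusted p = 0.000178, while id2b fell (-1.10 ± 0.27, edgeR adjusted p = 0.00538). The id2b call was lost under library totals (-0.47) and without control replicate 2 (adjusted p = 0.0574).

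**Figure D5:**
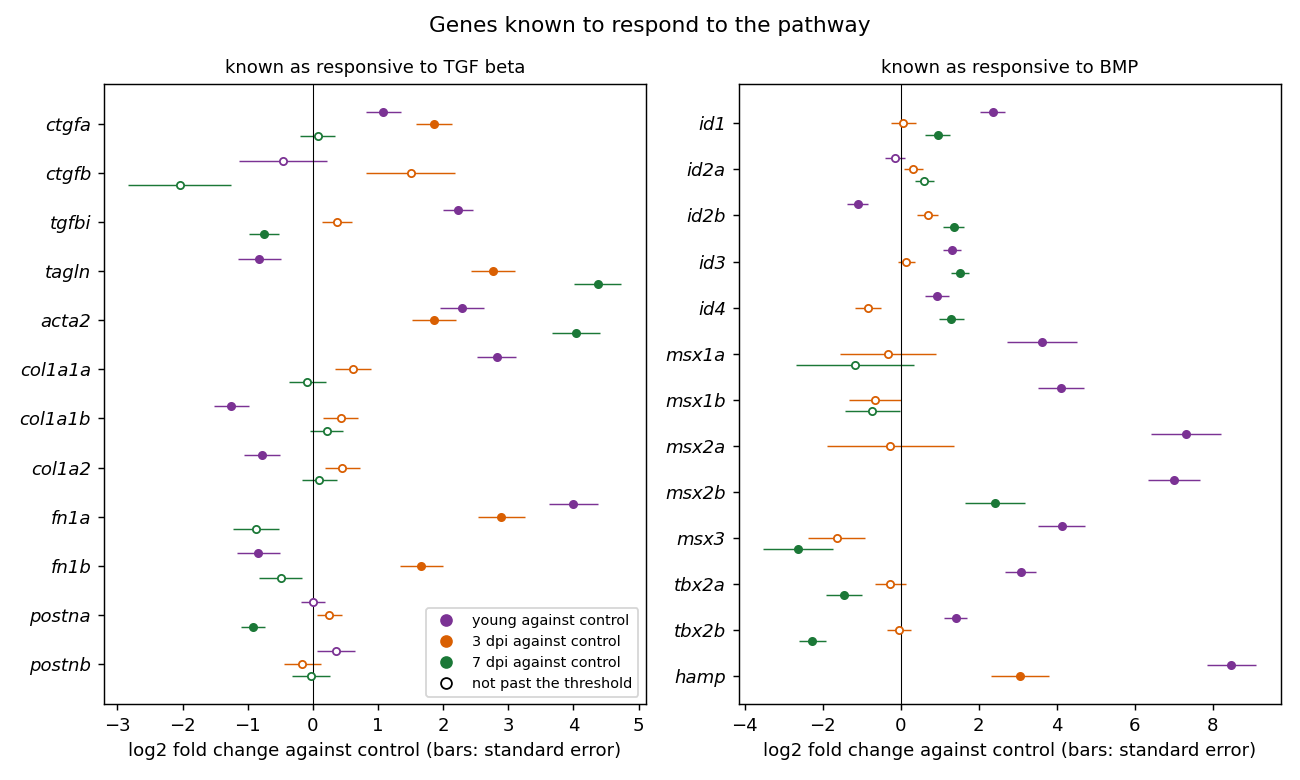
Log2 fold changes against control of 12 genes known as responsive to TGF beta (left) and 13 known as responsive to BMP (right) in young hearts (purple), at 3 dpi (orange) and at 7 dpi (green), under TMM scaling, with bars of 1 standard error and open points where not past the threshold. Values with 0 counts in a group are not drawn. fn1a lies at 2.89 at 3 dpi and tagln at 4.37 at 7 dpi; id1, id2b, id3 and id4 lie above 0 at 7 dpi, where library totals put id1 below 0.

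Over all comparisons, 61 of the 77 members were called in at least 1 comparison, 10 were tested and called in none, and 6 were not tested. The same count over all genes was not made. Single comparisons called 15.6% to 60.2% of all genes tested, so the 61 are not a result about the family. The 5 members called in all 4 comparisons were inhbaa, ltbp1, smad6a, tgfb1b and tgfbr2b. Each of them lost some of these calls under alternative runs, and smad6a lost every call against control under several.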

How the data were processed

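Per the labels' protocols, total RNA was isolated with TRIzol and sequenced on an Illumina HiSeq. Per the submitters' processing notes, reads were aligned to GRCz10 with TopHat2 2.0.13 and HTSeq was named for counting; neither the annotation release nor the strand setting is stated in the sources used here. The authors deposited raw counts per gene for 8 libraries, and RPM values (reads scaled by library total) of the 6 adult libraries, which equalled the count over the library total within a relative tolerance of 0.0001 for 100% of 23350 genes. The RPM table numbers the control replicates the other way round; numbering here follows the count table. Gene symbols of 23350 genes came from the RPM table and of 4026 from a gene name table, and 4577 genes had none.

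Counts were tested in R 4.3.3 with edgeR 4.0.16 (filterByExpr, TMM, quasi-likelihood F test, 1 coefficient per group over all 8 libraries, 4 residual degrees of freedom) on 19330 genes, with Benjamini-Hochberg adjustment over all of them and a threshold of 0.05. An exact permutation test of 2 against 2 libraries cannot go below p = 0.333. Folds against a group with 0 counts were computed as bounds, taking 3 counts for that group. Ratios of few counts carry 95% intervals from the counts, which cover counting error only. Alternatives were library totals, DESeq2 size factors in edgeR, DESeq2 1.42.0, 2 other filters on low counts, only the 2 groups compared, each library left out, and the replicate number as a block. The script was tested on simulated data. Each tested member that passed the threshold is given with its value in every library or in the groups compared, and the others by counts and ranges; pathway lists are given by counts and medians, with some genes named after their values were seen. The members, the lists and the genes named were chosen with earlier results of these data known. Replicates differed by more than sampling noise (chi-square per degree of freedom of 13.1 to 62.3). The lists of other pathway genes leave out 1 gene, which is not reported here.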

Additional observations from a re-analysis of the deposited data

Results flagged for a closer look

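The difference from control changed between 7 and 3 dpi for 36 members, by the direct edgeR comparison of the 7 dpi with the 3 dpi libraries. That comparison tests the difference of the effects against the shared control. The 36 are 50.7% of the tested members, beside 50.9% of all genes tested, so their number is not a result about the family. The values below are log2 fold changes at 7 dpi over 3 dpi under TMM scaling.

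Among ligands, the values below 0 were -1.95 for tgfb1a, -2.13 for tgfb1b, -1.77 for tgfb2, -4.74 for inhbaa, -1.57 for bmp6 and -1.71 for gdf6a. The ligand values above 0 were 2.41 for inhbab, 2.45 for bmp10l, 3.56 for bmp2a, 1.86 for bmp2b, 1.97 for bmp5 and 3.06 for gdf10b. The fitted value of gdf10a was 4.72, which rests on 4 counts and on the prior count. The kinase gene bmp2k stood at -1.63 and the adaptor gene tgfbrap1 at -1.20.

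Among receptors, tgfbr2b stood at 1.88 and bmpr1ba at 3.09. The others were below 0, at -4.17 for tgfbr3, -1.29 for acvr1ba, -4.44 for acvr1bb, -0.79 for bmpr1aa, -0.76 for bmpr1ab, -3.30 for acvr2ab, -2.66 for bmpr2a, -2.29 for bmpr2b and -5.14 for tgfbr2a. The fitted values of bmpr1bb (-5.74), tgfbr1b (-9.48) and acvr2b (-6.34) have 0 counts at 7 dpi and are no bounds.

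Among Smads, smad3a stood at -1.62, smad9 at 0.91, smad6a at 1.46, smad6b at 0.93 and smad7 at 1.04. The abundant ltbp1 ID stood at -3.30 and fstb at 1.66. Of the 14 values above 0, smad9, smad6a, smad6b, smad7 and fstb lay below 0 under library totals. The values of inhbab, bmp10l, bmp2b, bmp5, gdf10a, gdf10b, bmpr1ba and tgfbr2b stayed above 0 under that scaling but did not pass. Only the rise of bmp2a passed under library totals. Calls lost on leaving out 1 library are given with each gene above.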

How the results depend on the processing

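Listed here are the members whose value changed sign under library totals and passed under that scaling or under TMM, and the other pathway genes that passed under TMM and changed sign under totals. Sign changes of members that passed under neither scaling, and of pathway genes that did not pass under TMM, are not listed. For 7 dpi against control they were bmp1a -0.37, bmp16 -0.89, bmp3 -1.02, bmp6 -1.20, tgfbr2b -0.26, smad1 -0.84, smad5 -0.68, smad9 -0.81, smad6a -0.62, smad6b -0.14, smad7 -0.18, tab1 -0.013 and id1 -0.28. For young against control they were smad1 0.57 and smad6a 0.04. For 7 dpi against 3 dpi they were tgfb2l -1.34, tgfb3 -1.48, inhbb -1.29, bmp1a -1.67, bmp16 -1.39, bmp3 -1.43, bmp7b -1.69, acvr2aa -1.26, smad5 -1.24, smad9 -0.78, smad4a -1.61, smad6a -0.22, smad6b -0.76, smad7 -0.66, fstb -0.013, nog2 -1.21, fkbp1aa -0.63, tagln -0.10, id1 -0.79 and id3 -0.32. The scaling itself moves every value by about the same shift. Of the calls of members, the share above 0 was 53.3% at 3 dpi, 33.3% at 7 dpi, 76.7% in young hearts and 38.9% at 7 dpi against 3 dpi under TMM, and 85.7%, 0.00%, 88.9% and 2.13% under library totals. Of the calls over all genes, the shares in the same order were 58.0%, 48.3%, 54.1% and 44.8% under TMM. Under library totals they were 86.7%, 6.20%, 71.8% and 6.20%. The young shares include members that passed the filter on low counts through the young libraries. At 3 dpi against control 6 members were called with only the 2 groups fitted, a fit with fewer libraries. Leaving out 1 library gave 3 to 16 calls at 3 dpi (3 without control replicate 2, 4 without 3 dpi replicate 1), 17 to 27 at 7 dpi (17 without control replicate 1), 36 to 42 in young hearts and 30 to 34 at 7 dpi against 3 dpi. The calls made under every alternative in which the gene was tested numbered 2 of 15, 10 of 30, 29 of 43 and 16 of 36 in the same order. Samples with the same replicate number did not deviate together (correlations of -0.14 to 0.0678). These correlations over genes cannot show whether the libraries were collected or treated in pairs. The replicate block gave 13 calls at 3 dpi, 27 at 7 dpi, 41 in young hearts and 35 at 7 dpi against 3 dpi. With 2 libraries a group, calls of genes with few counts are the least precise.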
